A study of Mus musculus with 435 samples.

Results

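Nr5a1-eGFP mice carry a green fluorescent protein whose transcript reports the activity of Nr5a1, the nuclear receptor also called SF1. The cells compared here are the eGFP-high and eGFP-low cells of each capture, a capture being 1 microfluidic chip loaded with cells of 1 stage on 1 date. Within each of the 9 captures the cells were ranked by their eGFP transcript and split into 3 groups of near equal size, and the highest group was set against the lowest. This gave 129 eGFP-high and 129 eGFP-low cells, with 141 cells between them, out of 399 cells. Because the cells were selected on eGFP, its own values are a description and carry no test.

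Single cells came from XY gonads of Nr5a1-eGFP mouse embryos of mixed background, with 1 capture at E10.5 and 2 captures at each of 4 later stages, E11.5, E12.5, E13.5 and, last, E16.5. All had been sorted as eGFP-positive, with Draq7 to leave out dead cells, so the eGFP-low cells are low only within a sorted population. No cell without the reporter was measured as a control, and the number of embryos behind a capture is not stated. P-values here rest on the variation among captures, stages included, some of which may be technical. The labels also do not say which stretch of the genome the reporter construct carries.

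Nr5a1 is needed to form the gonad and the adrenal gland. In the fetal testis it acts in Sertoli cells, the supporting cells of the testis cords, and in Leydig cells, which make androgens in the interstitium. It binds DNA as a monomer and activates genes of steroid synthesis and the genes of anti-Müllerian hormone and the inhibin alpha subunit. Sertoli cells and interstitial progenitors, from which fetal Leydig cells arise, both descend from cells that express Nr5a1.

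The eGFP transcript covered a wide range within every capture (RPKM, reads per kilobase of transcript scaled to the reads of the cell). In the highest groups the capture medians ran from 1462 RPKM at E10.5 to 9716 RPKM in the second E11.5 capture. In the lowest groups they ran from 1.47 RPKM in the second E13.5 capture to 346 RPKM in the second E12.5 capture. The most eGFP-rich cell, in the first E12.5 capture, held 16125 RPKM, and 11 cells were listed at 0. At the border of the highest group at E10.5 the last cell inside had 667 RPKM and the next cell outside had 659 RPKM. In the second E12.5 capture no cell was at 0, and its lowest group started at 80 RPKM. The transcript made up between 0.601% and 3.1% of the summed RPKM in the highest groups.

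**Figure D1:**
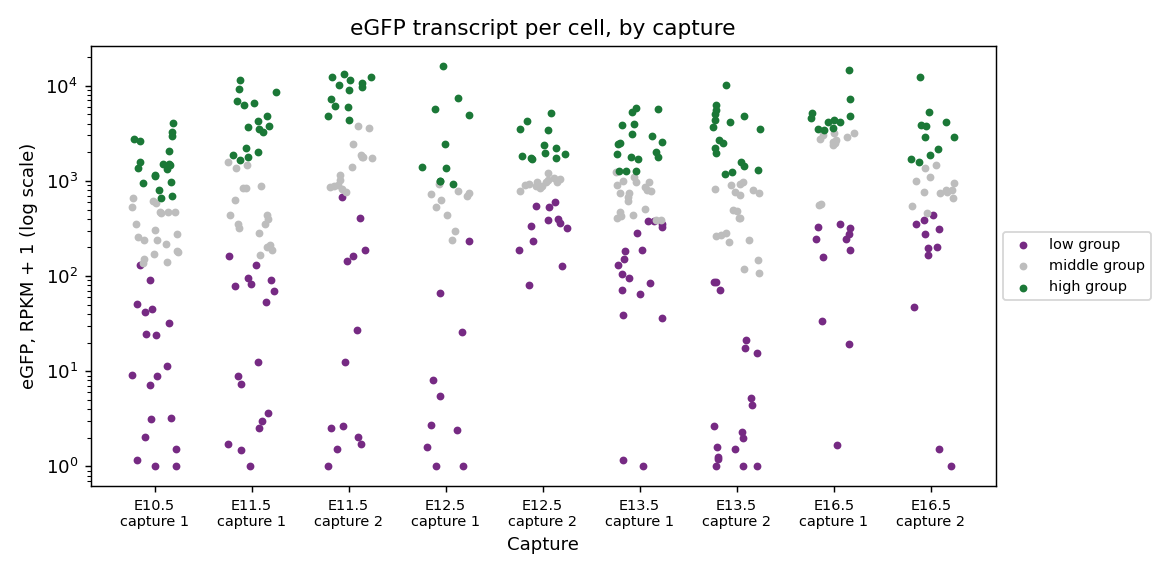
eGFP transcript of each cell (RPKM + 1, log scale) in the 9 captures, coloured by group. The groups do not overlap within a capture because they were cut on this value, and the lowest group of the second E12.5 capture starts at 80 RPKM while the other 8 captures reach 0.696 RPKM or less.

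The captures themselves differed in ways that touch the comparison. Captures of E10.5 and E13.5 were labelled with 25 M reads and the others with 10 M reads, and the first E13.5 capture used a medium chip. The implied depth per cell was 0.856 to 13 M reads, and per median cell it came to 4.65 ± 2.60 M reads in high and 4.42 ± 2.65 M reads in low groups (SD, n = 9; exact sign-flip test, two-sided p = 0.109). More genes were found in eGFP-high cells, 5867 ± 647 against 5430 ± 479 per median cell (SD, n = 9), in 9 of 9 captures. The exact two-sided sign-flip p was 0.00391, the smallest that 9 pairs can give. In the second E12.5 capture Sertoli cell markers were common in all 3 groups, and it stands apart from the other captures. Without it 431 genes were called, against 505 with it.

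**Figure D2:**
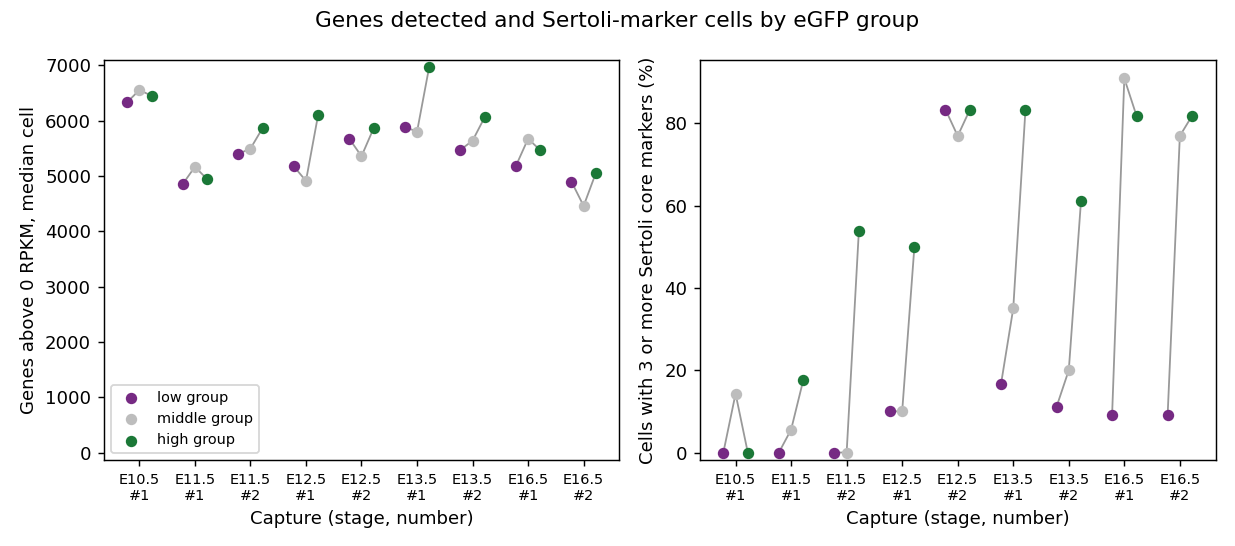
Genes above 0 RPKM in the median cell (left) and share of cells with 3 or more Sertoli core markers (right) for the low, middle and high group of each capture. The high group lies above the low group in 9 of 9 captures on the left and in 7 of 9 on the right.

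Across the 9 captures, 324 of 11383 genes tested were higher in eGFP-high cells (2.85%) and 181 were lower (1.59%). The test was limma on log2(mean RPKM + 1) of the 18 profiles with capture as a block, at a Benjamini-Hochberg adjusted p under 0.05. Before adjustment 2045 genes had p under 0.05. Leaving out the second E13.5 capture lowered the calls to 180 higher and 83 lower, and leaving out others gave between 271 and 631 calls in all. A total of 202 genes (1.77%) were higher in all 9 captures and 147 (1.29%) were lower in all 9. The median difference over all genes was 0.02. When each cell was scaled to the same sum of RPKM that median was -0.08 over 13052 genes, and 53.8% of the called genes were higher rather than 64.2%, so small changes are read against this shift. All changes below are differences in log2(mean RPKM + 1), high minus low, which understate the change of genes with low values.

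Nr5a1 itself followed its reporter. Its lowest, median and highest capture values were 31.6, 70.8 and 151 RPKM in eGFP-high cells and 0.790, 6.33 and 20.1 RPKM in eGFP-low cells. No low group reached any high group. The difference was 3.62 (SE 0.41, limma adjusted p = 0.000642), and it was positive in 9 of 9 captures. At 1 RPKM or more it was found in 128 of 129 high, 130 of 141 middle and 54 of 129 low cells. Within a capture its mean Spearman correlation with eGFP over cells was 0.776 (range 0.618 to 0.925 over 9 captures), the highest of 10458 genes present in every capture. Cells of a capture share the chip and the library preparation, so that value is a description.

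Nr6a1, the gene next to Nr5a1 on chromosome 2 and a nuclear receptor known from germ cells and the early embryo, was second in that order, with a mean correlation of 0.562 (0.232 to 0.812). It was chosen for description after its values were seen. Its levels were 145, 192 and 282 RPKM in eGFP-high and 0.934, 23.3 and 146 RPKM in eGFP-low cells (lowest, median and highest capture). The groups touched only through the low group of the second E12.5 capture. The difference was 3.09 (SE 0.51, limma adjusted p = 0.00299) and positive in 9 of 9 captures. It had risen most of the way in the middle group, at 0.763 of the distance from low to high, against 0.54 for Nr5a1.

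Other genes along the same stretch of chromosome 2 did not pass the test. In RefSeq order among genes with a row in the data, Psmb7, a proteasome subunit, lies on the other side of Nr5a1. It differed by 0.29 (limma adjusted p = 0.43) and was higher in 7 of 9 captures. Nek6, a mitotic kinase, followed at 0.13, and Dennd1a at -0.35. Beyond Nr6a1, where Olfml2a was too low to test, Wdr38, Rpl35, Arpc5l, Golga1 and Scai lay between -0.23 and 0.58. Crb2, further out on the first side, was at -2.08 (limma adjusted p = 0.146). The library kits do not mark strand, so reads of antisense transcripts over Nr6a1 cannot be told apart from its own. Whether the reporter construct also carries sequence around Nr6a1 is not stated, and any part of it in the Nr6a1 values was not tested.

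Among the partners of Nr5a1, Gata4, a zinc finger factor of gonadal somatic cells, was higher by 1.71 (SE 0.40, limma adjusted p = 0.0239) in 9 of 9 captures. That call held in 6 of 9 fits with a capture removed, with an adjusted p of 0.07 without the second E13.5 capture. Nr2f2 (COUP-TFII), a nuclear receptor of interstitial cells, was lower by 1.87 in size, at 26.9 to 249.5 RPKM in high and 182 to 305 RPKM in low groups, lower in 8 of 9. Its adjusted limma p was 0.00253. Wt1, Lhx9 and Emx2, factors of the early gonadal ridge, had differences of 0.32, -0.32 and -0.43 (limma adjusted p = 0.546, 0.845 and 0.739). Nr0b1 (DAX1), a repressor partner of Nr5a1, had capture values from 0 to 70.7 RPKM in high and 0 to 12.53 RPKM in low groups and a difference of 1.20 (limma adjusted p = 0.446). Of the 13 tested genes of the list 2 were called higher and 1 lower, with a median of -0.14. Over all genes 2.85% were called higher and 1.59% lower.

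Genes of Sertoli cells were higher in eGFP-high cells. Of 27 tested members of a Sertoli list 19 were called higher and 0 lower, with a median of 2.84, against 2.85% of all genes and a median of 0.02. All 8 core markers (Amh, Dhh, Ptgds, Cst9, Aard, Defb19, Sox9 and Mro) were called. With each cell scaled to the same sum 13 of the 27 and 6 of the 8 were called, all still positive. The list had been drawn up with earlier results of these data known.

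Ptgds, which makes prostaglandin D in the testis cords, had the largest change of the genes with the same sign in all 9 captures. It stood at 0.0509, 180 and 687 RPKM in eGFP-high and at 0, 0.569 and 68.2 RPKM in eGFP-low cells (lowest, median and highest capture). At E10.5 both groups were near 0, and from E11.5 on each high group was above its low group. The difference was 5.09 (SE 0.73, limma adjusted p = 0.00135). It was found at 1 RPKM or more in 56 high, 34 middle and 9 low cells.

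Sox9, the transcription factor that sets Sertoli fate, was at 24.9, 116 and 337 RPKM in high and 1.09, 9.74 and 98.3 RPKM in low groups. The ranges overlap, and 8 of 9 captures were higher in the high group. Its difference was 3.22 (SE 0.64, limma adjusted p = 0.00931). Inha, which encodes the inhibin alpha subunit, rose by 4.67 (SE 0.72, limma adjusted p = 0.00225), from 0.135, 5.85 and 28.9 RPKM to 6.97, 141 and 1094 RPKM, in 9 of 9 captures. Inhbb, the inhibin beta B subunit, was higher by 3.71 (limma adjusted p = 0.00131) in 8 of 9.

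Defb19, a beta-defensin of Sertoli cells, ranged from 1.07 to 3023 RPKM in high and from 0 to 232 RPKM in low groups and was higher in 9 of 9 captures. Mro, a gene of the testis cords, ranged from 0.00575 to 107 RPKM in high and from 0 to 3.64 RPKM in low groups. Their differences were 4.57 and 4.33 (limma adjusted p = 0.000671 and 0.000911). The other genes of large and uniform rise were Spp1 (osteopontin), Gatm, an enzyme of creatine synthesis, Rcan1, a calcineurin regulator, Tmem206, a chloride channel subunit, Mmd2, Rhox8, a homeobox gene of Sertoli cells, Etnk2, an ethanolamine kinase, and Rgcc. They lay between 3.84 and 4.71, each in 9 of 9 captures, with limma adjusted p between 0.000642 and 0.00348. Spp1 was also the single member called of 4 tested mesonephric markers, against 2.85% of all genes called higher.

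Amh, anti-Müllerian hormone, under which the female ducts regress, and Dhh, the hedgehog ligand of Sertoli cells, were lower in level. Amh was listed at 0 in both groups of the 2 E11.5 captures, stood at 0.00392 RPKM in the high cells of E10.5 and reached 57.8 RPKM in high and 5.75 RPKM in low groups, a difference of 2.41 (limma adjusted p = 0.0397). Dhh reached 43.6 and 24.03 RPKM and differed by 2.22 (limma adjusted p = 0.039). Each kept its call in 3 of 9 fits with a capture removed. Without the second E13.5 capture the adjusted p was 0.0981 for Amh and 0.108 for Dhh.

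Counted per cell, 3 or more of the 8 Sertoli core markers at 1 RPKM or more were found in 69 of 129 high, 46 of 141 middle and 18 of 129 low cells. Averaged over captures that was 57% ± 30.6 of high and 15.5% ± 26.1 of low cells (SD, n = 9). The share was higher in 7 captures and equal in the other 2, with an exact two-sided sign-flip p of 0.0156 and an adjusted p of 0.0938 over 6 marker lists, which does not pass 0.05. The 2 ties were E10.5, with 0 cells in both groups, and the second E12.5 capture, with 10 of 12 cells in both. Without that capture the shares were 53.7% and 6.99%. In triplets of cells matched for the number of genes detected they were 45.7% and 20.9%, higher in 7 captures and lower in 2. The exact sign-flip p there was 0.0312, not adjusted over the lists.

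**Figure D3:**
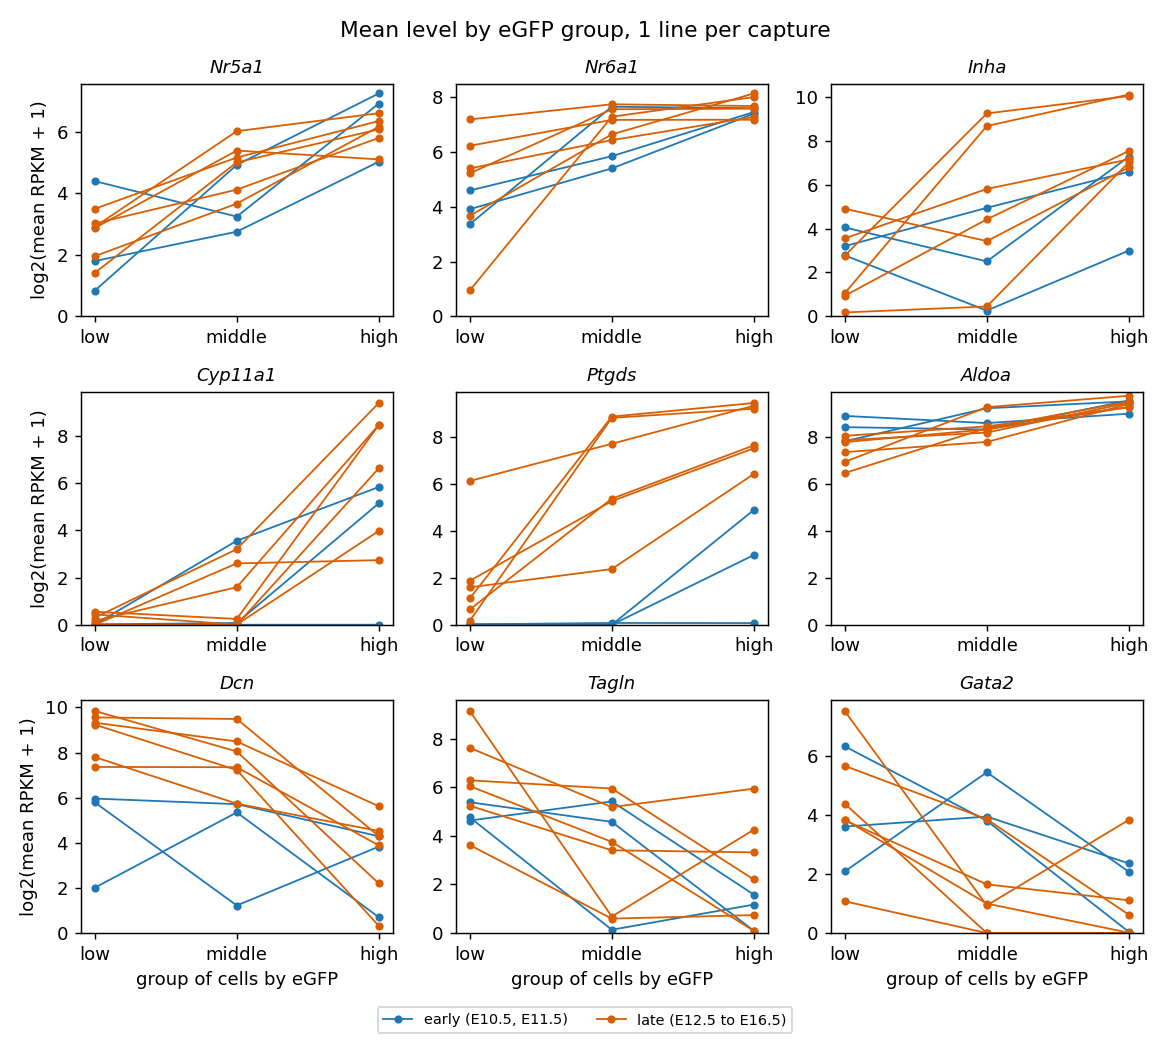
Mean level by group (log2 of mean RPKM + 1) for 9 genes, with 1 line per capture, early captures in blue and late captures in orange. Nr5a1 and Inha end above their start in 9 of 9 captures and Dcn and Tagln below it in 9 of 9, while Cyp11a1 stays near 0 in the low groups (at most 0.465 RPKM).

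Steroid genes and other known targets of Nr5a1 were higher as well. Of 19 tested genes 8 were called higher and 0 lower, with a median of 2.13, against 2.85% of all genes. With each cell scaled to the same sum 5 of the 19 were called. As deposited, the 8 were Star, Cyp11a1, Hsd3b1, Fdxr, Scarb1, Inha, Insl3 and Amh.

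Cyp11a1, the enzyme that cleaves the cholesterol side chain, had the largest of all differences, 5.46 (SE 0.78, limma adjusted p = 0.00135). In the lowest groups it was at 0, 0.0101 and 0.465 RPKM (lowest, median and highest capture), and in the highest groups at 0.00144, 56 and 671 RPKM. Only E10.5, at 0.00144 RPKM in the high group, lay within the range of the low groups. It was found at 1 RPKM or more in 27 high, 7 middle and 4 low cells, so a minority of eGFP-high cells carried it. The middle group lay at 0.199 of the way from low to high.

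Star, the carrier of cholesterol into mitochondria, and Hsd3b1, the next enzyme of the pathway, were higher by 3.61 and 4.63 (limma adjusted p = 0.0277 and 0.0275). Hsd3b1 was at 7.66 to 581 RPKM in high and 0 to 95 RPKM in low groups, and 3 of 9 captures had more in the low group. These were E10.5, the first E11.5 capture and the second E12.5 capture. Insl3, the Leydig hormone of testis descent, was listed at 0 in the early captures and reached 666 RPKM in a high group against 1.11 RPKM in a low one, with a difference of 3.61 (limma adjusted p = 0.0391). Cyp17a1, which makes androgen precursors, differed by 4.05 and missed the threshold (limma adjusted p = 0.0513). The calls of Hsd3b1, Star and Insl3 held in 3, 4 and 4 of 9 fits with a capture removed. The adjusted p rose to 0.0987 for Hsd3b1 without the second E16.5 capture, and to 0.0778 for Star and 0.101 for Insl3 without the second E13.5 capture.

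At least 3 of 6 Leydig core markers were found in 13 of 129 high, 2 of 141 middle and 4 of 129 low cells, or 10.4% ± 10.3 of high and 3.56% ± 4.35 of low cells per capture (exact sign-flip p = 0.0781, adjusted p = 0.234). Of the 13 high cells 9 also had 3 or more Sertoli core markers, against 1 middle and 0 low cells with both. The part of wells with more than 1 cell in these values was not tested. Of 20 genes of cholesterol synthesis 0 were called by limma, against 2.85% of all genes called higher and 1.59% lower. The median of the 20 was -0.01, and Hmgcs1 was at 102 to 349 RPKM in high and 66.6 to 338 RPKM in low groups.

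Of 11 tested genes of retinoic acid handling 2 were called higher and 3 lower, with a median of -0.57 and 9 below 0. Over all genes 2.85% were called higher and 1.59% lower. Cyp26b1, which breaks down retinoic acid in the fetal testis, rose by 2.88 (SE 0.43, limma adjusted p = 0.002) in 9 of 9 captures, from at most 2.68 RPKM in low groups to a median of 14.8 RPKM. Aldh1a1, which makes it, was higher by 3.69 (limma adjusted p = 0.0224, 8 of 9 captures) with an adjusted p of 0.0764 without the second E11.5 capture. The binding proteins Crabp1 and Crabp2 were lower by 2.22 and 2.0 in size. Aldh1a2, another enzyme of retinoic acid synthesis, was at -0.10 (limma adjusted p = 0.935), and Rdh10, a retinol dehydrogenase outside the list, was lower by 2.65 in size in 9 of 9 captures (limma adjusted p = 0.00428). Crabp1 had an adjusted p of 0.0778 without the second E11.5 capture and Crabp2 of 0.0824 without the second E13.5 capture.

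Genes of glycolysis were higher by smaller amounts. All 16 tested differences were positive, with a median of 0.74 against 0.02 over all genes. Called higher were 6 of them, against 2.85% of all genes: Hk2, Aldoa, Eno1, Pkm, Ldha and Ldhb. Under each of 3 other scalings all 16 stayed positive, with 4 or 5 of them called. Hk2, a hexokinase, had an adjusted p of 0.0898 without the first E13.5 capture, and Pkm, a pyruvate kinase, of 0.0583 without the second E11.5 capture.

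Aldoa, the aldolase of the pathway, was at 505, 696 and 858 RPKM in high and 87.1, 223 and 473 RPKM in low groups, and the groups did not overlap. Its difference was 1.68 (SE 0.23, limma adjusted p = 0.000911), and it was among the 3 genes that followed eGFP most closely over cells (mean correlation 0.519). Ldhb, a subunit of lactate dehydrogenase, was at 364, 822 and 2510 RPKM in high and 81.2, 281 and 463 RPKM in low groups, a difference of 1.96 (SE 0.23, limma adjusted p = 0.000642). Eno1 is reported with its near-identical copy Eno1b in mind, since reads can be shared between them. It differed by 1.22 (limma adjusted p = 0.00496) without overlap between the groups.

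Subunits of the respiratory chain showed small differences. Of 29 tested 3 were called higher (Cox5a, Ndufa4 and Atp5c1, by 0.92, 0.58 and 0.58) and 0 lower, against 2.85% of all genes called higher. The median of the 29 was 0.32, against 0.02 over all genes. Ndufa4 had an adjusted p of 0.104 without the first E16.5 capture, and Atp5c1 of 0.0706 without the first E13.5 capture. All 29 were positive as deposited, and 23 were positive with each cell scaled to the same sum, with a median of 0.20 and 1 called. Scaled without eGFP it was also 1. Ribosomal proteins had a median of 0.02 with 0 of 29 called, and that median was -0.12 under the same scaling. Vdac3 and Slc25a5, a mitochondrial channel and the adenine nucleotide carrier, were chosen after their values were seen. They were higher by 1.87 and 1.02 in 9 of 9 captures (limma adjusted p = 0.000642 and 0.000862).

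**Figure D4:**
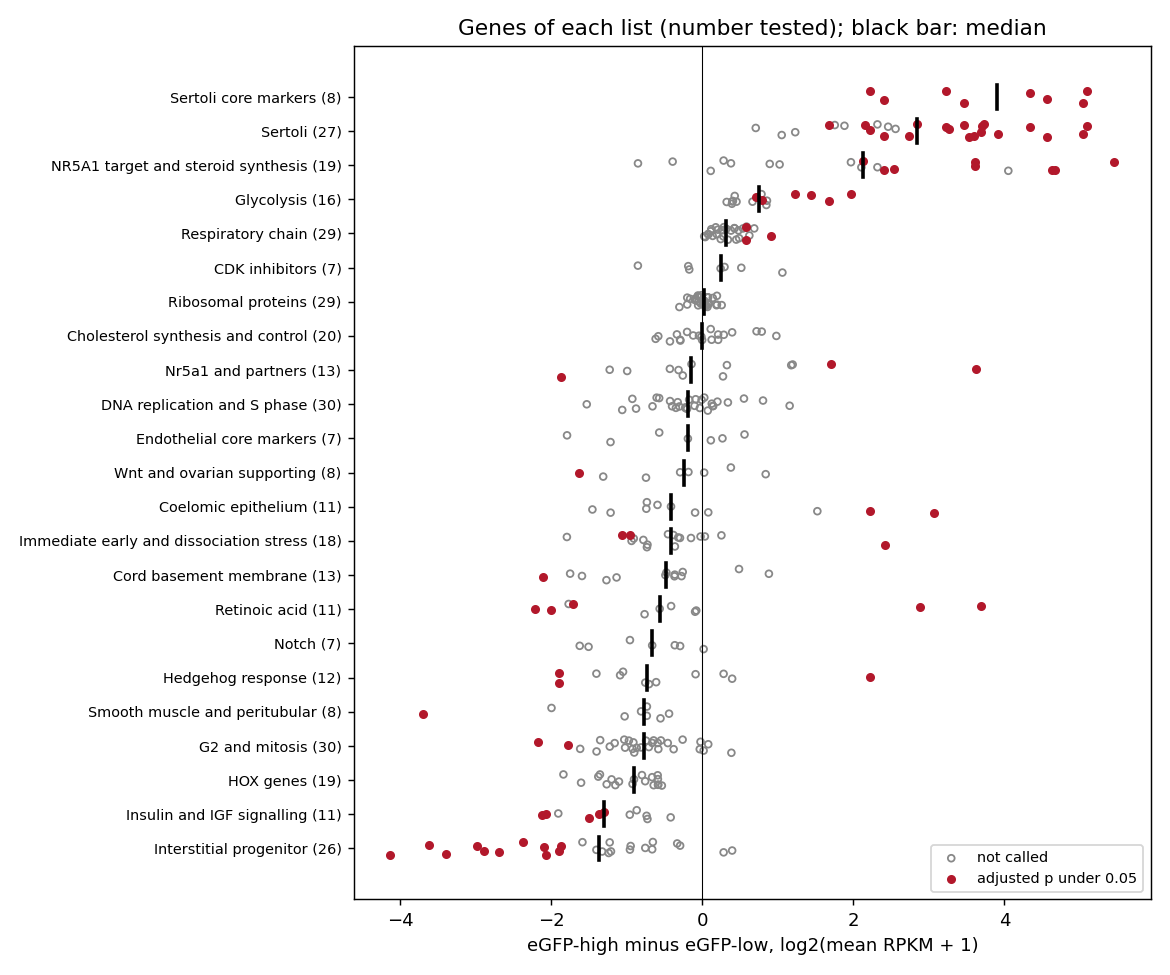
Difference between eGFP-high and eGFP-low cells (log2 of mean RPKM + 1) for each tested gene of the lists with 7 or more tested genes, with filled points for adjusted p under 0.05 and a bar at the median. Sertoli genes (median 2.84) and steroid genes (2.13) lie on the right and interstitial progenitor genes (-1.37) on the left, with ribosomal proteins at 0.02.

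Genes of interstitial progenitors were lower in eGFP-high cells. Of 26 tested interstitial genes 11 were called lower (against 1.59% of all genes) and 0 higher, with a median of -1.37. Pdgfra, a growth factor receptor of fetal Leydig progenitors, had a difference of -1.33 and missed the threshold (limma adjusted p = 0.1).

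Dcn (decorin), a matrix proteoglycan of interstitial fibroblasts, fell by 4.13 (SE 0.66, limma adjusted p = 0.00256) in 9 of 9 captures. It was at 0.25, 13.8 and 48.2 RPKM in high and 3.03, 221 and 916 RPKM in low groups. From E12.5 on every low group, at 163 RPKM or more, was above every high group, while the low cells of the second E11.5 capture, at 3.03 RPKM, lay within the range of the high groups. The collagen gene Col1a1 fell by 3.40 in 8 of 9 captures (limma adjusted p = 0.00468), from 12.7, 43.5 and 376 RPKM in low to 0.228, 5.56 and 20.1 RPKM in high groups. Pdgfrb, a growth factor receptor of perivascular and mesenchymal cells, fell by 2.99 in 9 of 9 (limma adjusted p = 0.00829).

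Tagln, an actin-binding protein of smooth muscle, fell by 3.70 (SE 0.45, limma adjusted p = 0.000671) in 9 of 9 captures, at 0.0658, 2.002 and 60.7 RPKM in high and 11.3, 40.9 and 563 RPKM in low groups. It was the 1 member called of 8 tested smooth muscle and peritubular genes, whose differences were all below 0 (median -0.77). Of all genes 1.59% were called lower. Acta2, smooth muscle actin, had -1.998 and did not pass (limma adjusted p = 0.258). The groups overlapped for both.

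Alcam, a cell adhesion molecule, separated the groups less widely but more evenly. It fell by 3.02 (SE 0.41, limma adjusted p = 0.000862) and stood at 0.21, 6.11 and 15.9 RPKM in high and 13.3, 73.9 and 104 RPKM in low groups. Rbms3, an RNA-binding protein, did not overlap at all, at 0.0181 to 15.7 RPKM in high and 25.2 to 91.5 RPKM in low groups (difference -3.06, limma adjusted p = 0.002). It had the most negative mean correlation with eGFP over cells, -0.504 (-0.739 to -0.199).

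Further genes lower in all 9 captures were Sfrp2, a secreted Wnt modulator, the matrix proteins Mfap4 and Bgn, the cadherin Cdh11, the actin-binding Cnn2, the calcium sensor Ncs1, Lrrc17 and Gata2. They lay between -3.44 and -3.06, with limma adjusted p between 0.00212 and 0.0318. Gata2, a zinc finger factor of mesenchyme and blood cells, was found at 1 RPKM or more in 7 high, 27 middle and 37 low cells. Cnn2 had an adjusted p of 0.0688 without the second E11.5 capture and Lrrc17 of 0.0779 without the second E16.5 capture.

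Members of insulin and IGF signalling were lower. Of 11 tested 5 were called lower (Igf1, Igf2, Igf2r, Irs1 and Igfbp4) and 0 higher, against 1.59% of all genes called lower. The median of the 11 was -1.31 against 0.02 over all genes, and all 11 were below 0 under each of the 4 scalings. Igf2, a fetal growth factor, was at 2.49, 39 and 91.1 RPKM in high and 17.9, 76.8 and 158 RPKM in low groups, and fell by 1.51 (SE 0.30, limma adjusted p = 0.00888) in 9 of 9. The groups overlapped. Igf1, a growth factor of interstitial cells, fell by 2.08 (limma adjusted p = 0.02, and 0.0582 without the first E16.5 capture). Igf2r had an adjusted p of 0.0785 without the second E13.5 capture, and Irs1 of 0.107 without the first E16.5 capture.

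Of 12 tested genes of the hedgehog pathway 1 was called higher, Dhh, and 2 were called lower, with a median of -0.73. Over all genes 2.85% were called higher and 1.59% lower. Gli1, a transcriptional readout of the pathway, and Gas1, a coreceptor, were each lower by 1.90 in size (limma adjusted p = 0.0307 and 0.0373). Both calls held in 2 of 9 fits with a capture removed. Without the second E13.5 capture Gli1 had an adjusted p of 0.087, and without the first E16.5 capture Gas1 had 0.0874. Ptch1, the receptor, was at 0.28 and Hhip, a hedgehog-binding protein, at 0.39 (limma adjusted p = 0.805 and 0.75), and both are also known as response genes.

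Over all genes 2.85% were called higher and 1.59% lower, and the counts of the next 4 lists are read beside these shares. Of 30 genes of G2 and mitosis 2 were called lower, Top2a and Nusap1 (by 1.79 and 2.18 in size). None was called higher, and 27 were below 0 (median -0.78). With cells of 3 or more core markers left out, 19 of the 30 were above 0 (median 0.14). Within cells of 3 or more Sertoli core markers 27 were below 0 (median -1.28). Without the first E16.5 capture Top2a had an adjusted p of 0.102, and without the second E13.5 capture Nusap1 had 0.0573. Of 30 replication genes 0 were called (median -0.19), and Mki67, the proliferation marker, was at -0.87 (limma adjusted p = 0.362). Of 27 HOX genes, which give cells their place along the body axis, 19 were tested. All 19 were below 0 under each of the 4 scalings (median -0.91 as deposited), and 0 were called. Some averaged under 1 RPKM in high groups, such as Hoxd4 at 0.44 against 4.21 RPKM in low groups. These passed the filter only through their low groups, so their sign was largely set by it. For others, such as Hoxd8 at 25.1 against 40.2 RPKM, the filter did not set the sign. With cells of 3 or more core markers left out, 6 of 18 were above 0 and 12 below. Within cells of 3 or more Sertoli core markers all 11 tested were below 0. Of 18 immediate early and stress genes, which tissue dissociation can induce, 1 was called higher and 2 lower, with a median of -0.42. Hspb1, a small heat shock protein, was higher by 2.43 in 9 of 9 captures (limma adjusted p = 0.00774). Egr1 and Fos were lower by 1.06 and 0.96 in size (limma adjusted p = 0.00434 and 0.0494) in 8 and 7 of 9 captures. Fos had an adjusted p of 0.124 without the first E16.5 capture.

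Markers of cells that a gonad sort could also hold were rare in both groups. At least 3 endothelial core markers were found in 1 high and 3 low cells, germ cell markers in 1 and 3, all in the second E12.5 capture, and mesonephric markers in 2 and 3. Macrophage and erythroid markers were found in 0 high and 0 low cells, each of 129, with 8 of 11 and 3 of 8 listed markers in the data. The summed level of the 11 endothelial markers was 0.628 to 172 RPKM in high and 6.09 to 105 RPKM in low groups. Cyp11b1 and Cyp21a1, which define the adrenal cortex, had means under 1 RPKM in both groups. The other 5 adrenal markers were tested and 0 were called, but 4 of their differences were above 0 and 1 below (median 0.89). Mc2r averaged 15.1 RPKM in high and 24.9 RPKM in low groups, with a difference of 0.38 on the log scale. Mrap averaged 6.42 and 0.27 RPKM, with a difference of 1.67 (limma adjusted p = 0.09). The summed level of the 7 was 7.44 to 79 RPKM in high and 0.185 to 153 RPKM in low groups. At least 3 of the 7 were found in 0 low and 2 high cells, both of the first E13.5 capture. The 3 cells below 3000 genes were kept, and 480 genes were called without them. Of the other lists, coelomic epithelium had 2 of 11 genes called higher, Krt8 and Lgals7, while 7 of the 11 were below 0 (median -0.42). Wnt genes had 1 of 8 and cord basement membrane genes 1 of 13 called lower, and Notch genes and CDK inhibitors 0 of 7 each. Over all genes 2.85% were called higher and 1.59% lower.

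The middle group lay between the high and low groups for most called genes, 320 of 324 genes called higher and 170 of 181 called lower. Its median place was 0.496 of the way from low to high for genes called higher. For the 8 Sertoli core markers it was 0.633, and for the 4 called Leydig core markers 0.0673. The middle groups were therefore closer to the high groups for the first and to the low groups for the second. These places come from the same contrast that called the genes and are a description.

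Promoters of the called genes were searched for the monomer motif bound by Nr5a1, CAAGGTCA, on both strands, in the 250 bases before and 50 bases after each start in RefSeq (GRCm38.p6). Of 324 genes called higher 227 had a promoter in the table, and 8 of them (3.52%) held the motif. It was found for 0 of 125 genes called lower and for 109 of 8577 genes tested (1.27%). All 32851 promoters of the table held it in 1.56%. The looser motif CAAGGNCA, which includes the first, was found for 11.45% of genes called higher, 5.6% of genes called lower and 5.77% of genes tested. Genes called higher had 1.35 promoters each in the table, genes called lower 1.38 and all tested 1.28. A match is a description and no evidence of binding, and no test was run.

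The 4 promoters with the exact motif whose genes had the largest differences are shown from 5′ to 3′ on the gene's strand, with the motif in capitals. They are those of Susd3 (chr13:49248245-49248544, minus strand), Cst8, a cystatin (chr2:148798589-148798888, plus strand), Aldh3b1, an aldehyde dehydrogenase (chr19:3929729-3930028, minus strand), and Amhr2, the receptor of anti-Müllerian hormone (chr15:102445117-102445416, plus strand).
Susd3: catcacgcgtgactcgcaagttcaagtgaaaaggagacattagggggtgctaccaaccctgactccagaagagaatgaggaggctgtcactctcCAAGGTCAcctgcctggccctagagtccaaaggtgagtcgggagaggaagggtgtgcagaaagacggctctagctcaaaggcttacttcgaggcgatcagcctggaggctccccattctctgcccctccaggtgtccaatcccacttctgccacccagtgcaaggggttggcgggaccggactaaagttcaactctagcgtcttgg
Cst8: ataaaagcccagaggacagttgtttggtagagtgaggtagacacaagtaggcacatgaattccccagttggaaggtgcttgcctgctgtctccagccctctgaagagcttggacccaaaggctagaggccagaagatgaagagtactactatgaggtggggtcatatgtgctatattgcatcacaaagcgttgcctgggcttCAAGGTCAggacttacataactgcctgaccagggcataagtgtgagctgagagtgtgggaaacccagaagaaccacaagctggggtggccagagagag
Aldh3b1: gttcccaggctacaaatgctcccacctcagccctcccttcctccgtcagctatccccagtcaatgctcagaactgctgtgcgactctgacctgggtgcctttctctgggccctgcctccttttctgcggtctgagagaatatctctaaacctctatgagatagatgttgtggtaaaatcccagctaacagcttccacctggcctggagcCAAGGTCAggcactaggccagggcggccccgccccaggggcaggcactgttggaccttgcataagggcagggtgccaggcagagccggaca
Amhr2: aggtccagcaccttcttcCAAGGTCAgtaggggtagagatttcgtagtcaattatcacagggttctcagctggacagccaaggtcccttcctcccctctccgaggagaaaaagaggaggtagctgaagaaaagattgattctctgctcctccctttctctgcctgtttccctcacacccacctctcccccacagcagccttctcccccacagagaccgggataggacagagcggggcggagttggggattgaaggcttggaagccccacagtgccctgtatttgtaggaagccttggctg
Counted from the start site, the first motif base lies at -156 in Susd3, -48 in Cst8, -41 in Aldh3b1 and -232 in Amhr2. Amhr2 was at 20.5, 76.8 and 199 RPKM in high and 0.291, 12.2 and 32.95 RPKM in low groups, and rose by 2.81 (SE 0.50, limma adjusted p = 0.00429) in 9 of 9 captures. Susd3 rose by 4.24 (SE 0.55, limma adjusted p = 0.000671) in 8 of 9, Cst8 by 3.73 in 8 of 9 and Aldh3b1 by 3.09 in 7 of 9. Aldh3b1 had an adjusted p of 0.105 without the second E13.5 capture. Cst8 belongs to a cluster of related cystatin genes, so its reads can be shared with copies.

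The differences could be followed in narrower sets of cells. When the groups were drawn within triplets of cells matched for the number of genes detected, 96 of 11353 genes were called higher (0.846%) and 48 lower (0.423%), among them 10 of 27 Sertoli genes, 4 of 19 steroid and target genes and 6 of 26 interstitial genes. Matching brought the genes detected to 5593 and 5577 per median cell. Nr5a1 was at 2.79, Inha at 2.90, Cyp11a1 at 5.18, Dcn at -2.90 and Gata2 at -3.11 there, all called.

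With all cells that carried 3 or more core markers of any type left out and the groups drawn anew, 1 of 10993 genes was called (0.0091%) by limma, and 700 had an unadjusted p under 0.05. The groups then held 2 to 16 cells. The gene called was Nr6a1, at 233 against 32.7 RPKM (means over captures), a difference of 3.72 (SE 0.55, adjusted p = 0.0468) in 9 of 9 captures. Nr5a1 stood at 49.1 against 4.79 RPKM, a difference of 3.24 in 9 of 9 (adjusted p = 0.203). Among the genes named above, Tagln was at -3.38, Gata2 at -2.66, Gata4 at 1.71 and Cyp11a1 at 0.58. The median of the Sertoli list was 0.80 over 16 tested genes and that of the interstitial list -0.44. The list of steroid and target genes, which also holds core markers, had a median of 0.004 over 14 tested genes, 7 above and 7 below 0. Hsd3b1 was at -1.25. Cells had been removed for carrying core markers, which include Hsd3b1, Cyp11a1 and 5 of the 16 Sertoli genes, so the values of these genes in this set are shaped by that choice.

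Within cells that carried 3 or more Sertoli core markers, from the 5 captures with at least 9 of them, 0 of 10734 genes were called (0%) and 835 had an unadjusted p under 0.05. The core markers themselves were not tested there. Nr5a1 was at 75.7 RPKM in the upper and 32.8 RPKM in the lower group, a difference of 1.27 (SE 0.53, limma adjusted p = 0.612) in 5 of 5 captures. Inha was at 631 and 235 RPKM, with 2.13 (limma adjusted p = 0.4), and Aldoa at 736 and 317 RPKM, with 1.31, each in 5 of 5. Dcn was at 21.3 and 304 RPKM, with -5.09 (limma adjusted p = 0.383), lower in 5 of 5. Cyp11a1 was at 131 and 0.934 RPKM, with 3.57, and some of these cells also held Leydig markers, whose part was not tested. Nr6a1 differed by 0.67, higher in 4 of 5.

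**Figure D5:**
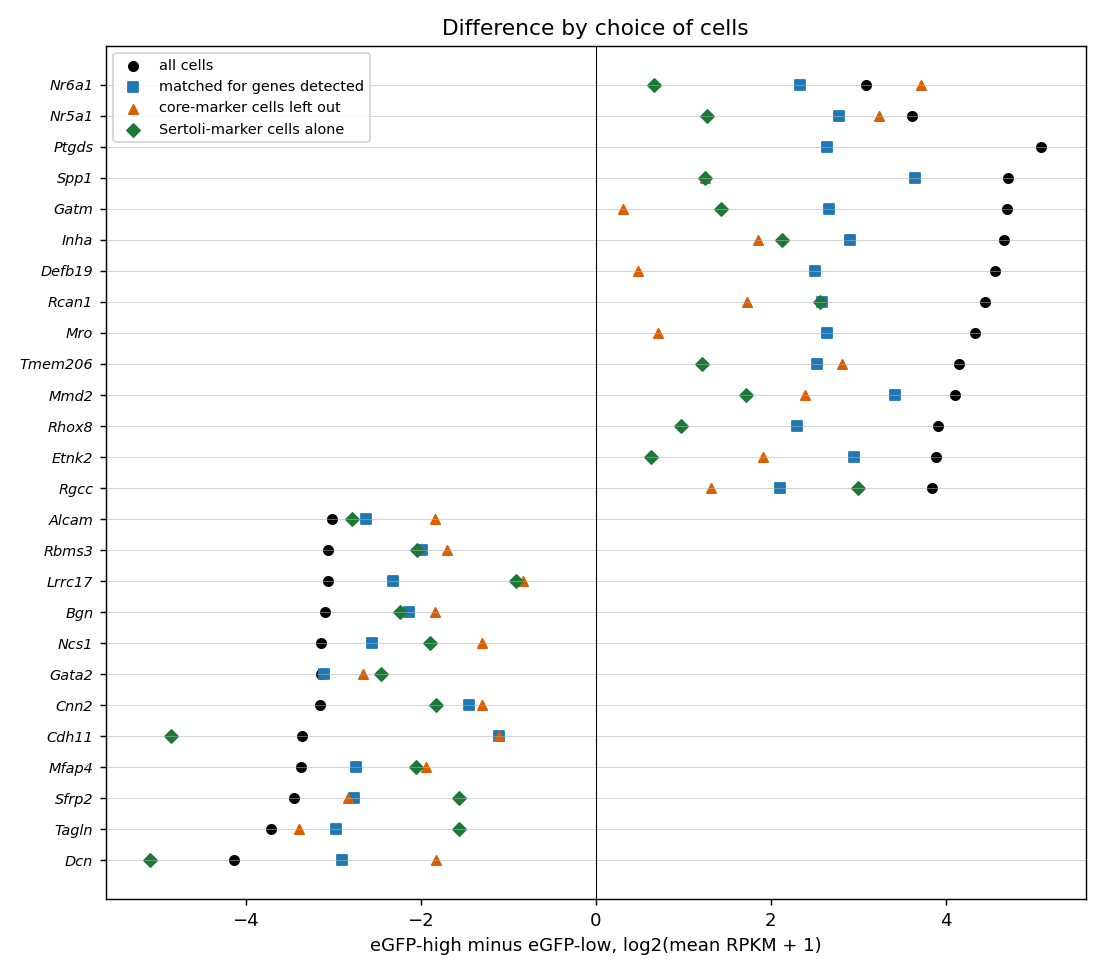
Difference between eGFP-high and eGFP-low cells (log2 of mean RPKM + 1) of the genes with the largest uniform changes, Nr5a1 and Nr6a1, for all cells and for 3 narrower sets of cells. Nr6a1 (3.72) and Nr5a1 (3.24) lie farthest right among the triangles, which mark the set without core-marker cells, and Gatm is at 0.31 there. Defb19 and the other core markers were used to remove cells from that set.

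Whether the eGFP differences changed with stage was tested as the difference between the 6 captures from E12.5 on and the 3 before it. By limma 0 of 11383 genes were called (0%), and 664 had an unadjusted p under 0.05. Nr5a1 differed by 4.05 in early and 3.40 in late captures (difference of the differences -0.65, SE 0.88, adjusted p = 0.986). Nr6a1 was at 3.53 and 2.87. In the early captures alone it was the 1 gene called of 11008 (0.00908%).

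Larger gaps that did not pass were seen for late markers. Insl3 was at 0 early and 5.42 late, Lum, a small proteoglycan of the matrix, at 0.01 and -5.43 (adjusted p = 0.517), Dcn at -1.65 and -5.38 (adjusted p = 0.703) and Inha at 2.27 and 5.86 (adjusted p = 0.787). Without the second E12.5 capture 4 genes were called for this difference, Cyp17a1, Hsd3b1, Gja1 and Adh1, all higher late. Without E10.5 it was Tagln2 alone. The labelled read number, which splits the stages in another way, gave 0 genes called for its difference and 335 with an unadjusted p under 0.05. Within the 10 M and the 25 M read captures Nr5a1 was at 3.73 and 3.40, Inha at 5.27 and 3.46 and Dcn at -3.77 and -4.86.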

How the data were processed

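Libraries of single Nr5a1-eGFP positive cells were made on Fluidigm C1 chips with SMARTer chemistry and Nextera XT and sequenced as 100-base read pairs, per the labels' protocols. The authors deposited RPKM per cell and gene, without counts, for 16459 genes and 400 of 435 labelled cells, and 35 cells are not analysed here. The unit was taken from the values. Sources used here name neither the aligner and counting tool nor the cell filter. Builds GRCm38.p3 and mm10 are listed per the submitters' processing notes. Of all values 65.7% were 0.

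In the second E12.5 capture wells 49 and 56 were almost identical (correlation 0.998, next pair within any capture 0.701) and were averaged to 1 cell. The high and low groups of each capture were averaged to 18 profiles. Genes with a mean of at least 1 RPKM over the profiles were fitted as log2(mean + 1) with limma 3.58.1 (R 4.3.3), with capture as a block, Benjamini-Hochberg adjustment and a threshold of 0.05. The fit was also run on simulated profiles with independent normal noise for each gene. Those profiles do not carry the mix of cells of the data, so that run does not vouch for the calls. Genes detected, depth and shares of cells with 3 or more core markers at 1 RPKM were compared by exact two-sided sign-flip tests over captures. Depth was implied from the most common step of RPKM times exonic length among low values, so it is an estimate. Without counts no cell could be thinned to a fixed depth, and triplets of cells matched for genes detected were used instead. No doublet caller was run.

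The groups, gene lists and tests were chosen with earlier results of these data known. The named genes are those called, with 1 direction in all 9 captures, at least 5 RPKM and no predicted gene model, up to the 12 largest each way, and up to 4 called members of each of 29 lists (2 where none was called), besides Nr5a1 and Nr0b1. Other genes were chosen after their values were seen, among them Nr6a1 and its neighbours, the motif genes, Sox9, Amh, Inhbb, Cyp17a1, Wt1, Lhx9, Emx2, Pdgfra, Acta2, Pkm, Mki67, Ptch1, Hhip, Aldh1a2, Rdh10, Vdac3 and Slc25a5. Gene order and promoters come from RefSeq (GRCm38.p6). Alternatives covered filters, pseudocounts, scaling, the split of cells and left-out captures. Those for early or late captures alone, without both E12.5 captures and scaled without eGFP were added after the data were seen.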

Additional observations from a re-analysis of the deposited data

Results flagged for a closer look

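For 8 named genes 1 of the 9 captures lay far from the other 8 in the difference between eGFP-high and eGFP-low cells (log2 of mean RPKM + 1), by a gap that Dixon's test at the 95% level counts as too wide. Chance alone does this for about 1 in 20 groups of values. Every named gene was looked at in this way, so several or all of the 8 can be chance, and their values are a description. Esam, an endothelial adhesion molecule, reached 5.92 in the second E16.5 capture, the 1 capture in which a high cell carried 3 or more endothelial markers. Dppa3, a germ cell gene, reached 2.96 in the first E13.5 capture. Hk2, a hexokinase, reached 4.52 in the second E16.5 capture, and Fn1 (fibronectin) was at -6.09 in the same capture. Crabp2 was at -6.03 in the first E12.5 capture. E10.5 stood lowest for 3 genes called higher over all captures, with 0.0 for Inhbb, -0.12 for Bex2 and -0.01 for Susd3.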

How the results depend on the processing

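Against 505 genes called, 147 were called with no filter on low values, 1150 with the mean of log2 values over cells, 257 with all cells split at the median of eGFP, 144 in triplets matched for genes detected, 1 with core-marker cells left out, 239 in the 10 M and 0 in the 25 M read captures alone (888 with an unadjusted p under 0.05 by limma, 2 residual degrees of freedom), 1 in early captures alone and 298 without both E12.5 captures. Leaving out 1 capture gave 263 (without the second E13.5 capture) to 631 calls (without E10.5); 334, 288, 317, 288, 271 and 297 genes were called without the first and second E11.5, the first E12.5, the first E13.5 and the first and second E16.5 capture. Without the capture block, that is with no pairing of the groups, 383 genes were called. The cause of these changes was not tested, except that fewer samples or cells entered several of them. For the difference between late and early captures 5 genes were called with the mean of log2 values (Pmp22, Dcn, Clu, Podxl and Vnn1), and 0 to 4 when 1 capture was left out. With core-marker cells left out Hsd3b1 was at -1.25 and Fn1 at 0.0409, both of the other sign. In matched triplets the genes detected differed by 16.3, by construction. With each cell scaled without eGFP 55.1% of 470 calls were higher. Depth per cell of 0.856 M reads at the least limits what can be seen of genes with low values.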

Other observations

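Some further genes that followed eGFP lay outside the lists and were chosen after their values were seen. Klhl23, a kelch family protein, was at 18.6, 112 and 151 RPKM in high and 6.30, 15.1 and 53.5 RPKM in low groups (lowest, median and highest capture), and differed by 2.32 (SE 0.27, limma adjusted p = 0.000642) in 9 of 9 captures. Cst3, cystatin C, was at 178, 422 and 898 RPKM against 80.9, 118 and 298 RPKM and differed by 1.65 (limma adjusted p = 0.000642) in 9 of 9. Bex2 was higher by 2.42 in 8 of 9 captures.

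Among genes with high levels everywhere, Fstl1, a secreted glycoprotein of mesenchyme, was at 135, 189 and 224 RPKM in high and 280.3, 509 and 1194 RPKM in low groups, without overlap, and fell by 1.51 (SE 0.19, limma adjusted p = 0.000671). Marcks, a membrane protein that binds actin, fell by 1.37 in 9 of 9 captures (limma adjusted p = 0.000911). Actb, often used as a reference gene, was lower in eGFP-high cells in 9 of 9 captures, by 0.35 (SE 0.07, limma adjusted p = 0.00891), and by 0.48 with each cell scaled to the same sum. Meis1 and Nfib, transcription factors of mesenchyme, fell by 1.85 and 1.48 in 9 of 9 captures (limma adjusted p = 0.00573 and 0.00225).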
